A study of Mus musculus with 6 samples.

Results

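The conjugation enzymes of 3 families were followed in primary mouse hepatocytes treated with TNF: the soluble glutathione transferases (Gst), the sulfotransferases (Sult) and the UDP-glucuronosyltransferases (Ugt). Genes were taken by their symbols (Gsta, Gstk, Gstm, Gsto, Gstp, Gstt and Gstz followed by a digit, Sult followed by a digit, and Ugt1, Ugt2 and Ugt3), which gave 52 of the 19764 genes in the table: 21 Gst, 19 Sult and 12 Ugt genes. Hepatocytes of Bl6/N mice, plated on collagen, spent 16 h in low-serum starvation medium (5 mM glucose). TNF cells then received 1 ng/ml TNF, and Control cells the vehicle, for 8 h; both groups were given at the same time corticosterone (1 µM), which activates the glucocorticoid receptor, and the PPARα ligand WY-14643 (10 µM). Each group had 3 libraries, numbered 1 to 3, and no group lacked these ligands, so every comparison is of TNF within that treated, fasting-like state. The labels do not say whether the replicates came from separate animals or wells, so the p-values measure only spreads seen within these samples, which may be technical.

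Conjugation is the step at which the liver attaches a polar group to a drug, hormone, bile acid or reactive metabolite so that it can leave the cell. Glutathione transferases attach glutathione to electrophiles, sulfotransferases transfer sulfate from the donor PAPS, and UDP-glucuronosyltransferases of the endoplasmic reticulum transfer glucuronic acid from UDP-glucuronate. Export pumps of the ABC family carry the products into bile or blood, and nuclear receptors such as CAR, PXR and HNF4α, together with the oxidative stress factor NRF2, are known to control the levels of many of these enzymes.

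Library totals lay between 17612060 and 25114289 reads over genes, and values are CPM (reads scaled to a common library size), recovered from the deposited log2 values. The 7 hepatocyte markers in the table summed to 36262 to 51740 CPM in TNF libraries and 37953 to 55990 CPM in Control libraries, and 4 of them (Ttr, Apoa1, Fgb and Cps1) fell. Cps1 fell by 1.43 on the log2 scale, and the others by 0.11 to 0.26. The call of Ttr was lost without replicate number 2 or 3. Summed markers of macrophages lay between 216 and 353 CPM in TNF libraries and between 183 and 308 CPM in Control libraries, nearly all of it Cd68 and Cd14, and Cd14 rose (log2 0.76), while the defining Kupffer cell genes Clec4f, Vsig4, Marco and Adgre1 had at most 12 reads each in all 6 libraries together. Endothelial markers summed to 83.8 to 149 CPM in TNF libraries and 84.4 to 156 CPM in Control libraries (Oit3 rose and Stab2 fell), stellate cell markers to 19.7 to 45.8 and 18.3 to 67.8 CPM (Reln fell), cholangiocyte markers to 32.5 to 54.5 and 25.5 to 35.2 CPM (Sox9 rose; Krt19 and Krt7 were near 0), and leukocyte markers to at most 0.345 and 0.718 CPM (Ly6g was at 0). The call of Stab2 was lost without any 1 of the replicate numbers, and that of Reln without number 2 or 3. The part of these shifts in the results below was not tested, and in bulk RNA fewer cells of a type and less RNA per cell cannot be told apart. The 6 TNF response genes Ccl2, Icam1, Tnfaip3, Nfkbia, Cxcl1 and Relb all rose.

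Conjugation genes that changed with TNF did so by small amounts, and more of them fell than rose. Of the 52 genes, 39 passed the filter on low reads (20 Gst, 8 Sult and 11 Ugt). "Rose" and "fell" denote here a Benjamini-Hochberg adjusted p under 0.05 in limma with the replicate number as a block ("blocked"). The adjustment was over all 12293 genes tested, and "unpaired" denotes the same fit without the block. Blocked p-values rest on the spread of the TNF minus Control difference between numbers, and unpaired ones on the spread between libraries of a group. In both fits that spread is drawn toward a prior variance shared between genes. A blocked SE can thus be smaller or larger than the gene's own numbers would give. A small blocked p is not by itself agreement among a gene's own numbers. The unpaired fit was the main one in the design. The blocked calls set these words because libraries of the same number deviated together. In the blocked fit 16 of the 39 passed (41%), against 20.6% of all tested genes. Of these, 5 rose, where 9.4% of all tested genes did, and 11 fell, where 11.2% did. All 5 that rose were glutathione transferases: Gsta1, Gsta4, Gstm2, Gstm6 and Gstp2. The genes that fell were Gstm3, Gstp1, Gstt1, Gstt2, Gstz1, Sult1d1, Ugt2b1, Ugt2b5, Ugt2b34, Ugt2b36 and Ugt3a2. The median log2 change was -0.10 over the 39 genes and -0.013 over all tested genes, and 30 of the 39 were below 0, against 53.9% of all tested genes. Without the block 1 of the 39, Sult1d1, passed, against 0.431% of all tested genes (0.358% higher and 0.0732% lower). Every other blocked call rests on the pairing of the libraries by number, and none of the 16 passed when the fit took in every row of the table, genes without reads included.

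**Figure D1:**
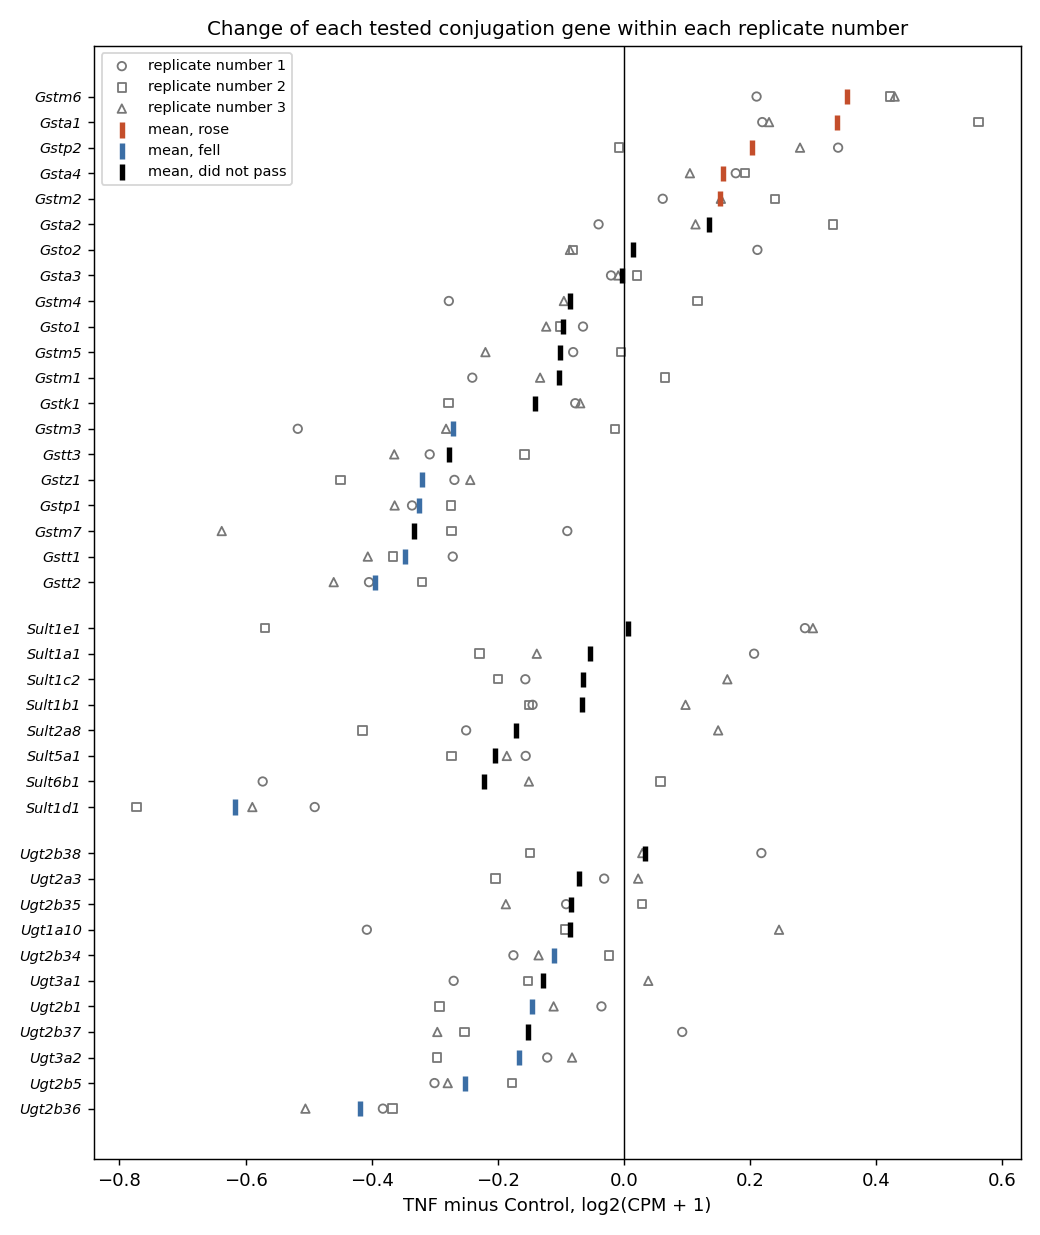
Change of each tested conjugation gene with TNF within replicate numbers 1, 2 and 3 (open symbols) and their mean (bar), as TNF minus Control on the log2(CPM + 1) scale, by family. All 5 genes that rose are Gst genes, and Sult1d1, at -0.62, has the lowest mean of the 39 genes.

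Among glutathione transferases the change went both ways, with 5 of 20 tested genes higher, 5 lower and 10 that did not pass. Over all tested genes 9.4% rose and 11.2% fell. Gstp1, the pi-class enzyme, and Gstm1, a mu-class enzyme, carried 29.1% and 29.5% of all reads over the Gst genes. Gstp1 stood at 1264, 1231 and 1028 CPM in TNF 1, 2 and 3, and at 1595, 1488 and 1322 CPM in Control 1, 2 and 3. All TNF libraries lay below all Control libraries, and Gstp1 fell by 0.32 on the log2 scale (blocked SE 0.0345, blocked limma adjusted p = 1.13e-05, unpaired adjusted p = 0.512). Its neighbour Gstp2, 2375 bases away on chromosome 19, encodes a second pi-class enzyme and stood at 75.4, 55.6 and 110 CPM in TNF libraries, against 59.4, 55.9 and 90.1 CPM in Control libraries. The groups overlapped, number 2 showed no rise, and Gstp2 rose by the blocked fit (log2 0.20, SE 0.0573, adjusted p = 0.0208, unpaired 0.98), a call lost without replicate number 1 or 3.

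The ratio of Gstp2 to Gstp1 within a library, a pair chosen after its values were seen, was thus higher in TNF than in Control by 0.68, 0.27 and 0.65 on the log2 scale in numbers 1, 2 and 3, with a mean log2 ratio of -3.92 ± 0.63 in TNF libraries and -4.45 ± 0.50 in Control libraries (SD, n = 3 each). An exact permutation test of this ratio, without pairing, gave p = 0.3, where 0.1 is the smallest p it can reach. The 2 transcripts are 98.2% identical over their aligned bases, with a shared run of 369 bases in GENCODE vM21, so reads may be split between them and both values are uncertain. The promoters of both genes are shown because this pair moved in opposite directions; each is the RefSeq window of 250 bases before to 50 after the gene's start, GRCm38.p6, minus strand, 5′ to 3′, Gstp1 at chr19:4037863-4038162 and Gstp2 at chr19:4042172-4042471. Capitals mark a match to the AP-1 motif TGANTCA, which begins 74 bases before the start of Gstp1 and 89 before that of Gstp2.
Gstp1: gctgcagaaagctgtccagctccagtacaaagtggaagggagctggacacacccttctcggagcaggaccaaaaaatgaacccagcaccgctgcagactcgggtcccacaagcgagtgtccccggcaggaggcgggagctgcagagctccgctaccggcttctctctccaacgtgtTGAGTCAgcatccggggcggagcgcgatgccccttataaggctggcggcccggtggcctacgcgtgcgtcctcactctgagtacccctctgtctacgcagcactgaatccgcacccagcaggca
Gstp2: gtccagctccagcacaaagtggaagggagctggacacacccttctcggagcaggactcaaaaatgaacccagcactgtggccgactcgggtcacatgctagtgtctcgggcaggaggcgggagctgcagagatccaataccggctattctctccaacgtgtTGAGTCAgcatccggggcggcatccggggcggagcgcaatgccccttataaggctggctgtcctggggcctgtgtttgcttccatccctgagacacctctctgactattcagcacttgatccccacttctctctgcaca
In a global alignment of the 2 windows 246 of 300 bases were identical (82%). The motif was added to the search after these sequences were read, and 7.81% of the 32851 promoters of the same length hold it on either strand, as do 8 of the 45 conjugation genes with a promoter in the RefSeq table.

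The mu-class cluster on chromosome 3 was also mixed. Gstm1 stood at 1323, 1379 and 1172 CPM in TNF libraries and at 1563, 1318 and 1285 CPM in Control libraries, and did not pass (log2 -0.10, blocked adjusted p = 0.157). Gstm3 stood at 369, 359 and 227 CPM in TNF libraries, against 529, 362 and 276 CPM in Control libraries, and fell (log2 -0.27, blocked SE 0.0634, adjusted p = 0.007). Number 1 held the largest difference, -0.52, and number 2 nearly none, -0.014. Gstm6, 19946 bases from Gstm3 on the same strand, went the other way, with 48.3, 81.4 and 58.8 CPM in TNF libraries and 41.6, 60.5 and 43.4 CPM in Control libraries. It was higher in each number, although the groups overlapped, and rose by 0.35 (SE 0.0521, adjusted p = 0.000206), the largest rise among conjugation genes in log2. Gstm2 rose by less, at 92.2, 137 and 99.9 CPM in TNF libraries and 88.3, 116 and 89.7 CPM in Control libraries (log2 0.15, adjusted p = 0.0167). That call was lost without replicate number 2. Gstm4, Gstm5 and Gstm7 did not pass, with log2 changes between -0.33 and -0.085.

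Of the 4 alpha-class genes, whose enzymes are known for conjugating lipid peroxidation products, 2 rose and none fell, against 9.4% and 11.2% of all tested genes. Gsta1 stood at 378, 272 and 245 CPM in TNF libraries and at 324, 184 and 209 CPM in Control libraries, and rose (log2 0.34, SE 0.0529, adjusted p = 0.000349). It was higher in every number, most in number 2 (0.56). Gsta4, which acts on hydroxynonenal, stood at 141, 110 and 121 CPM in TNF libraries and at 124, 96.6 and 112 CPM in Control libraries, and rose by 0.16 (adjusted p = 0.00626). Gsta3, the most abundant alpha-class gene by reads, was nearly the same in both groups, at 462, 480 and 392 CPM in TNF libraries and 468, 473 and 395 CPM in Control libraries, a log2 difference of -0.0028 with an unpaired SE of 0.11. Gsta2 reached 128 CPM in TNF 1 and 131 CPM in Control 1, against 60.4 to 66.3 CPM in the other TNF libraries and 52.5 to 55.7 CPM in the other Control libraries. Its level followed the replicate number and it did not pass (log2 0.14). Gsta1 and Gsta2 are 97.2% identical and may share reads.

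Of the 4 tested theta- and zeta-class genes 3 fell, with no overlap between the groups. Among all tested genes 11.2% fell in the blocked fit and 6.66% were lower without overlap. Gstt1 stood at 48.5, 41.2 and 41.8 CPM in TNF libraries and at 58.7, 53.3 and 55.8 CPM in Control libraries, Gstt2 at 28.1, 24.0 and 22.7 against 37.6, 30.2 and 31.6 CPM. Gstz1, the maleylacetoacetate isomerase of tyrosine breakdown, stood at 57.2, 58.8 and 58.0 CPM in TNF libraries and at 69.1, 80.6 and 68.9 CPM in Control libraries. In all 3 genes no TNF library reached the lowest Control library, and each fell in every number: Gstt1 by 0.35 (SE 0.0484, adjusted p = 0.000129), Gstt2 by 0.39 (SE 0.0606, adjusted p = 0.000292) and Gstz1 by 0.32 (SE 0.0482, adjusted p = 0.00025). Their unpaired adjusted p-values, 0.216, 0.339 and 0.214, were the lowest among the genes that passed only with the block. Gstz1 overlaps Pomt2, and 738 of its bases were not counted. Gstt3 and the omega-class Gsto1 had log2 changes of -0.28 and -0.096 and did not pass (adjusted p = 0.0573 and 0.0673).

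Sulfotransferases were dominated by 1 gene. Sult1d1, which in the mouse sulfates catecholamines and other phenols, carried 65.7% of all reads over the Sult genes. It stood at 90.5, 84.7 and 86.9 CPM in TNF libraries and at 128, 145 and 131 CPM in Control libraries, means of 87.4 ± 2.94 and 135 ± 9.44 CPM (SD, n = 3 each). No library of one group came near the other group, and Sult1d1 fell by 0.62 on the log2 scale (unpaired SE 0.0719, unpaired limma adjusted p = 0.0228, blocked adjusted p = 5.57e-07). The unpaired call was lost when any single library other than Control 1 was left out, and the blocked call was kept without any 1 of the replicate numbers. The gene spans chr5:87554650-87569006 on the minus strand (mm10), and its deposited counted length equals that whole span, introns included.

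The other sulfotransferases were low and none passed. Sult2a8, a hydroxysteroid sulfotransferase, stood at 15.1, 17.2 and 35.1 CPM in TNF libraries and at 18.1, 23.3 and 31.5 CPM in Control libraries. Sult1a1, the phenol sulfotransferase, stood at 10.3, 14.2 and 17.2 CPM in TNF libraries and at 8.78, 16.8 and 19.0 CPM in Control libraries. Both followed the replicate number, high in number 3. Sult5a1 was lower in each number (6.94, 7.94 and 10.4 CPM in TNF libraries, 7.84, 9.80 and 12.0 CPM in Control libraries; log2 -0.20, blocked adjusted p = 0.153). The oestrogen sulfotransferase Sult1e1 ran from 1.93 to 8.04 CPM in TNF libraries and from 3.35 to 6.41 CPM in Control libraries, with an unpaired SE of 0.41. Of the 9 Sult2 genes, Sult2a8 alone passed the filter; Sult2a7 and Sult1c1 had 0 reads, which allows up to 0.124 to 0.166 CPM per library by counting error, and Sult2a1 to Sult2a6 had 1 to 6 reads each in all 6 libraries. Sult2b1 had 14 reads in TNF and 14 in Control libraries, Sult3a1 had 3 and 1, and Sult4a1 had 51 and 41. Outside this family, Gstt4 (4 reads in TNF and 5 in Control libraries) and the olfactory Ugt2a1 (0 and 1) were also too low to test.

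UDP-glucuronosyltransferases moved in 1 direction where they passed. Of 11 tested genes 5 fell, none rose, and 10 had a change below 0. The shares over all tested genes were 11.2%, 9.4% and 53.9%. Ugt2b36 stood at 196, 244 and 179 CPM in TNF libraries and at 256, 315 and 254 CPM in Control libraries. The groups did not overlap and it fell by 0.42 (SE 0.0352, blocked adjusted p = 1.23e-06, unpaired 0.382). Ugt2b5 stood at 502, 499 and 347 CPM in TNF libraries and at 619, 565 and 422 CPM in Control libraries, lower in every number, and fell by 0.25 (SE 0.0334, adjusted p = 8.14e-05). Ugt2b34, the family's first by reads, fell by only 0.11 (569, 608 and 482 CPM in TNF libraries, 642, 618 and 530 CPM in Control libraries; adjusted p = 0.0367). Ugt2b35, next to it in abundance, did not pass (685, 575 and 366 CPM in TNF libraries, 730, 564 and 417 CPM in Control libraries; log2 -0.083). Ugt2b1 and Ugt3a2 peaked in number 3 in both groups: Ugt2b1 at 63.0, 57.2 and 124 CPM in TNF libraries and 64.6, 70.3 and 134 CPM in Control libraries, Ugt3a2 at 47.1, 47.9 and 73.0 CPM in TNF libraries and 51.3, 59.1 and 77.4 CPM in Control libraries. They fell by 0.15 (adjusted p = 0.046) and 0.17 (adjusted p = 0.0292), small beside the spread between numbers.

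The calls of Ugt2b1, Ugt2b34 and Ugt3a2 were each lost when replicate number 2 (Ugt2b1, Ugt3a2), 1 (Ugt2b34) or 3 (Ugt2b1, Ugt2b34) was left out. Reads of Ugt2b5 and Ugt2b38, 95.5% identical, and of Ugt3a1 and Ugt3a2, 91.7% identical, may be shared. The Ugt1a locus was represented by 1 row, Ugt1a10, at 0.670, 0.751 and 0.936 CPM in TNF libraries and 1.22, 0.869 and 0.633 CPM in Control libraries. It was counted over 15368 of its 164592 bases. Its span overlaps other Ugt1a genes, with which it shares exons, and why the remaining bases were not counted was not tested. Its value is not that of any other Ugt1a enzyme. The promoters of Ugt2b36 and Ugt2b5 are shown as those of the 2 Ugt genes with the largest falls (RefSeq, GRCm38.p6, minus strand, 5′ to 3′, chr5:87092506-87092805 and chr5:87140291-87140590). Capitals mark AGGTCA, the half-site of nuclear receptors, which begins 25 and 22 bases before the start, and TTGCNNAA of C/EBP factors, matched on the opposite strand 77 and 74 bases before it.
Ugt2b36: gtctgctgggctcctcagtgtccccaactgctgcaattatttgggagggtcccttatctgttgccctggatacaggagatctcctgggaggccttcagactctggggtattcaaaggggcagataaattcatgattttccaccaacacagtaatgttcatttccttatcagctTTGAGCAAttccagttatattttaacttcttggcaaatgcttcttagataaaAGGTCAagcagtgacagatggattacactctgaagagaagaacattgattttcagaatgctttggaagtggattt
Ugt2b5: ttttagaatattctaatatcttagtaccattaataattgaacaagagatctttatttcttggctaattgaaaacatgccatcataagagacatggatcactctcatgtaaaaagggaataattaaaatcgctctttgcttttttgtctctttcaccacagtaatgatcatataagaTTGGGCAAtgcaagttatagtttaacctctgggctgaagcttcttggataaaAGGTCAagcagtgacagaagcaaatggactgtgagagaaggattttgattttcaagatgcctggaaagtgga
The windows shared 202 of 300 bases (67.3%). AGGTCA stood in 8 of the 45 conjugation promoters and in 16.3% of all promoters, and TTGCNNAA in 11 of the 45 and in 10.8%, each on either strand. Of the 9 genes that fell and have a promoter in the table, 2 held AGGTCA and 4 TTGCNNAA. Among the 4 that rose, none held AGGTCA and 1, Gstm2, held TTGCNNAA. The NF-κB motif (GGGA, any 2 bases, TTCC) stood in 1 of the 45, Gstt4, and in 1.47% of all promoters, and the antioxidant response core TGACNNNGC in 2, Gsta3 and Gstm5, and in 12.4%. Neither exact spelling stood in the windows of the 4 genes that rose and the 9 that fell with a promoter in the table. Sites spelled otherwise were not searched, so their absence is not shown. Gsta4, Gstt2 and Ugt3a2 have no promoter there.

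**Figure D2:**
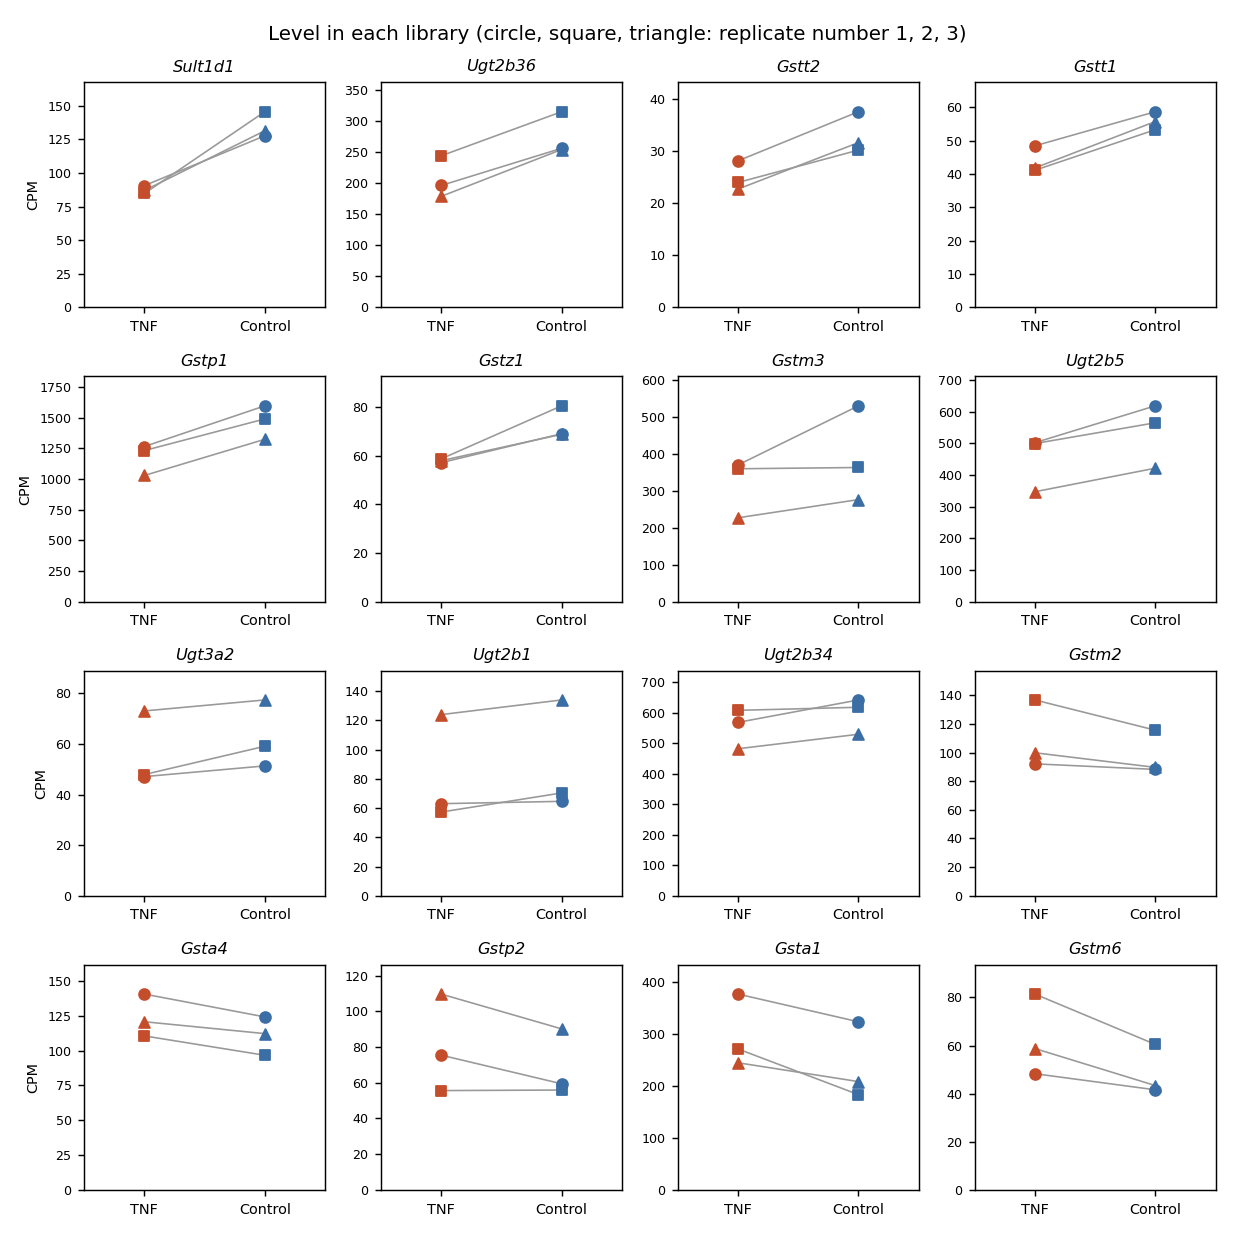
CPM in each library for the genes past the threshold, TNF left of Control in each panel, with symbols for replicate numbers 1, 2 and 3. Sult1d1 and Ugt2b36 show TNF libraries wholly below Control libraries, whereas Ugt2b1 separates by number, with 124 CPM in TNF 3 and 134 CPM in Control 3.

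Summed over each family, conjugation reads were lower in TNF than in Control libraries in the mean, with the largest percent difference, though the smallest in CPM, in the sulfotransferases. Summed Sult reads were 138, 131 and 160 CPM in TNF libraries and 177, 205 and 203 CPM in Control libraries, a difference of -26.6% in the mean. Without Sult1d1 the sum was 47.8, 46.2 and 73.5 CPM in TNF libraries and 49.8, 59.0 and 71.9 CPM in Control libraries, with log2 differences of -0.060, -0.35 and 0.033 in numbers 1, 2 and 3. Summed Ugt reads were 2094, 2064 and 1625 CPM in TNF libraries and 2395, 2229 and 1887 CPM in Control libraries, a difference of -11.2%. Summed Gst reads were 4663, 4526 and 3848 CPM in TNF libraries and 5366, 4611 and 4270 CPM in Control libraries, a difference of -8.50%. The Gst and Ugt groups overlapped, and both sums were lower in each number. These sums carry no test, and they are set by the most abundant genes.

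**Figure D3:**
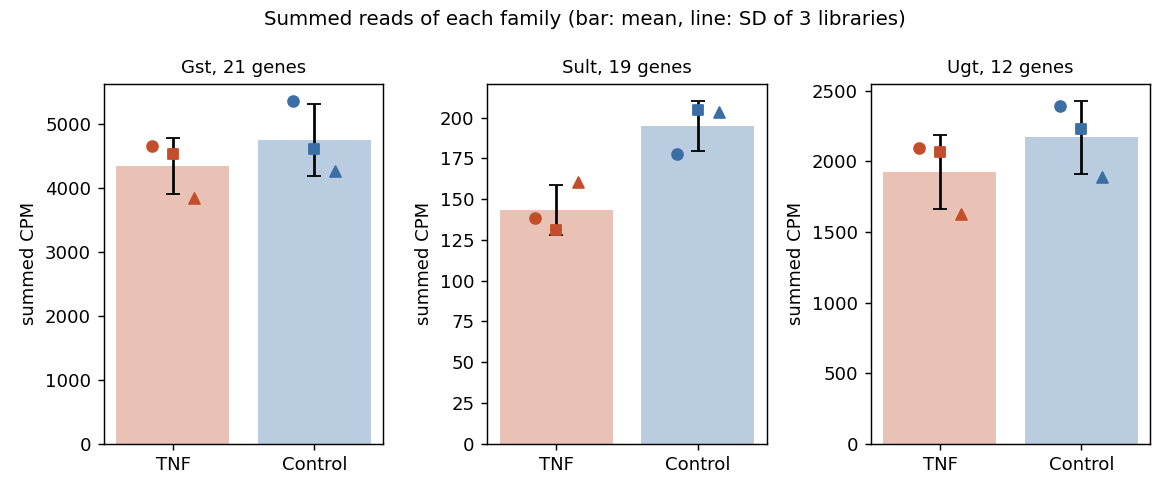
Summed CPM of the Gst, Sult and Ugt genes, TNF left of Control; bars are means, lines the SD of 3 libraries and points the libraries. Sult sums of TNF libraries (131 to 160 CPM) lie below those of Control libraries (177 to 205 CPM), and the other 2 families overlap.

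Differences between replicate numbers were larger than the change with TNF for most of these genes. In 32 of 39 the range between the means of the 3 numbers exceeded the TNF change: 16 of 20 Gst, 6 of 8 Sult and 10 of 11 Ugt genes. The share over all tested genes was not computed, so whether this count is particular to conjugation genes was not tested. The range is the highest minus the lowest of the 3 means, whereas the TNF change is a mean difference, so they are unlike measures. By gene, number 1 was highest for 13 of the 20 Gst genes, while number 3 was highest for 5 of the 11 Ugt genes and number 1 for 4. Shares over all tested genes were not computed for these counts. The summed Gst and Ugt reads were both highest in number 1 and lowest in number 3, in each group. Over the 39 genes, deviations from the group mean correlated at 0.868, 0.776 and 0.913 between the TNF and Control libraries of the same number, values that share the library pair and come from genes that are not independent. Of the 39 genes, 21 moved the same way in all 3 numbers, 14 of them Gst genes, again without a share over all tested genes to set beside it. The groups did not overlap in 6 genes, all lower with TNF (Gstp1, Gstt1, Gstt2, Gstz1, Sult1d1 and Ugt2b36), against 13.3% of all tested genes in either direction (6.66% lower and 6.59% higher).

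**Figure D4:**
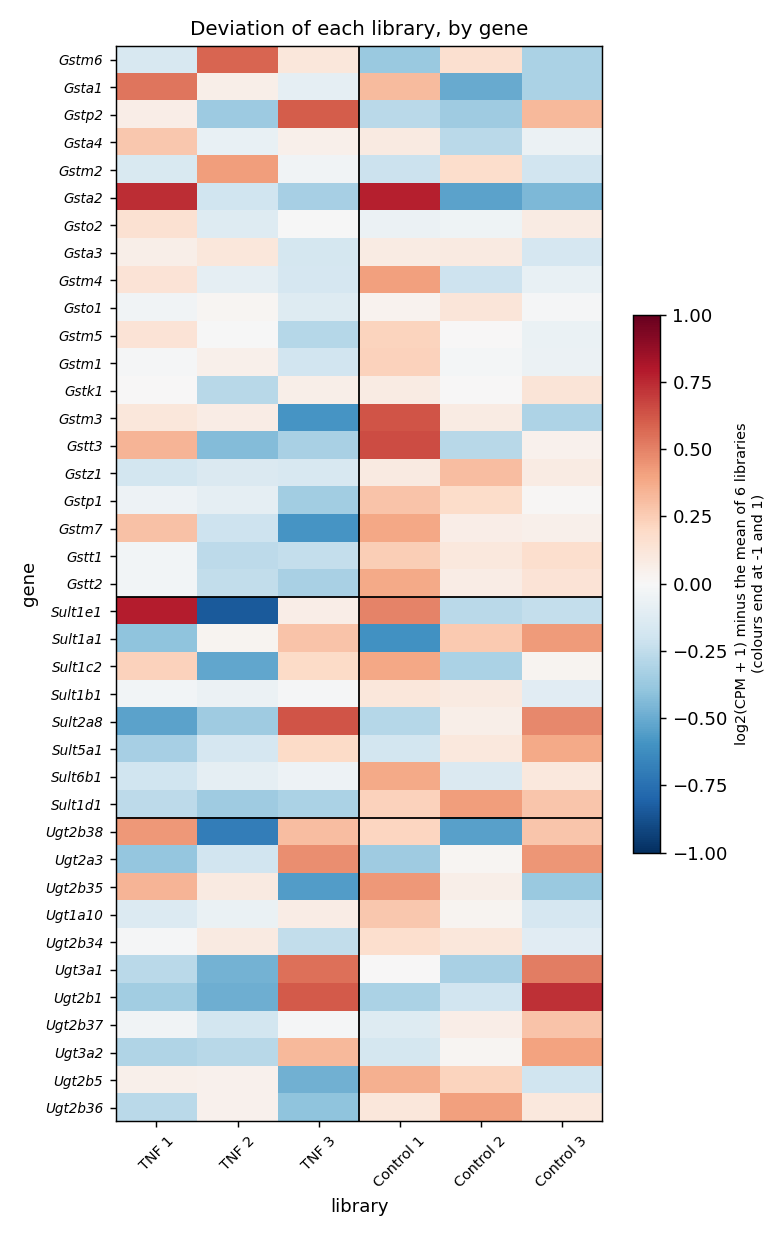
Deviation of each library from the mean of 6 libraries on the log2(CPM + 1) scale, genes in rows by family and TNF libraries left of Control libraries. Gsta2 is high in TNF 1 and Control 1 and Ugt2b1 in TNF 3 and Control 3, whereas Sult1d1 is low in every TNF library.

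Genes that feed or surround the conjugation step were taken from lists chosen with earlier results of these data known, and differences between the lists were not tested. In the blocked fit 9.4% of all tested genes rose and 11.2% fell, with a median log2 change of -0.013 over all of them. Of the 4 genes of glutathione supply 2 rose and none fell (median 0.20). Gsr, which regenerates reduced glutathione, stood at 1020, 864 and 890 CPM in TNF libraries and at 834, 600 and 631 CPM in Control libraries (log2 0.44, blocked adjusted p = 4.63e-06). Gclm, the modifier subunit of glutamate-cysteine ligase, averaged 412 ± 65.0 CPM in TNF libraries and 346 ± 73.4 CPM in Control libraries and rose by 0.26, while the catalytic subunit Gclc (log2 0.13, adjusted p = 0.0806) and the synthetase Gss (log2 0.089) did not pass. All 3 genes of UDP-glucuronate supply fell (median -0.37): Slc35d1, which carries UDP-glucuronate into the endoplasmic reticulum, by 0.50 (365 ± 72.2 CPM in TNF libraries, 514 ± 78.3 CPM in Control libraries), Ugp2 by 0.37 and Ugdh by 0.12, the last lost without replicate number 1. None of the 6 genes of PAPS supply in the table passed, with log2 changes between -0.15 (Papss1) and 0.090 (Impad1). The microsomal transferases Mgst1 and Mgst3 and the synthase Hpgds did not pass, and Mgst2 was not tested.

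Of 6 export pump genes 3 rose and 1 fell, against 9.4% and 11.2% of all tested genes, with a median log2 change of 0.22. Abcc1, a basolateral pump for glutathione conjugates, stood at 102, 59.5 and 56.2 CPM in TNF libraries and at 45.8, 19.3 and 22.2 CPM in Control libraries. Number 1 was high in both groups, and Abcc1 rose by 1.34 (SE 0.0688, blocked adjusted p = 8.54e-09, unpaired 0.232). Abcc2, the canalicular pump for conjugates, rose by 0.41 (1326 ± 400.4 CPM in TNF libraries, 1015 ± 384 CPM in Control libraries) and Abcc4 by 0.39, and Abcc6 fell by 0.55 (46.8 ± 10.5 CPM in TNF libraries, 68.9 ± 14.5 CPM in Control libraries). Abcc3 and Abcg2 did not pass. Of 8 tested genes that process or undo conjugates 4 fell and none rose, against 11.2% and 9.4% of all tested genes, with a median log2 change of -0.072. They were the peptidases Anpep (log2 -0.32) and Lap3 (-0.15), the acylase Acy3 (-0.26) and the arylsulfatase Arsa (-0.13), the last pair lost without replicate number 1 or 2.

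Of 11 regulators of conjugation genes, 7 fell and 1 rose, where 11.2% of all tested genes fell and 9.4% rose in the blocked fit, and their median log2 change was -0.37, against -0.013 over all tested genes. Nr1i3, which encodes CAR, stood at 3.54, 6.49 and 3.40 CPM in TNF libraries and at 8.12, 17.3 and 13.3 CPM in Control libraries, without overlap, and fell by 1.33 (SE 0.125, blocked adjusted p = 3.68e-06, unpaired 0.169); it was counted over 3833 of 4876 bases. Nr1i2, which encodes PXR, stood at 37.0, 41.1 and 37.3 CPM in TNF libraries and at 54.2, 58.1 and 53.4 CPM in Control libraries and fell by 0.51, with an unpaired adjusted p of 0.0509. Nr1h4, Hnf4a, Rxra, Ahr and Arnt fell by 0.53, 0.43, 0.42, 0.37 and 0.13, the last lost without replicate number 1 or 3. Nfe2l2, which encodes NRF2, rose by 0.23 (293 ± 34.9 CPM in TNF libraries, 249 ± 17.9 CPM in Control libraries), and Keap1, Ppara and Nr3c1 did not pass. No gene of these lists, the TNF response genes aside, passed without the block.

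**Figure D5:**
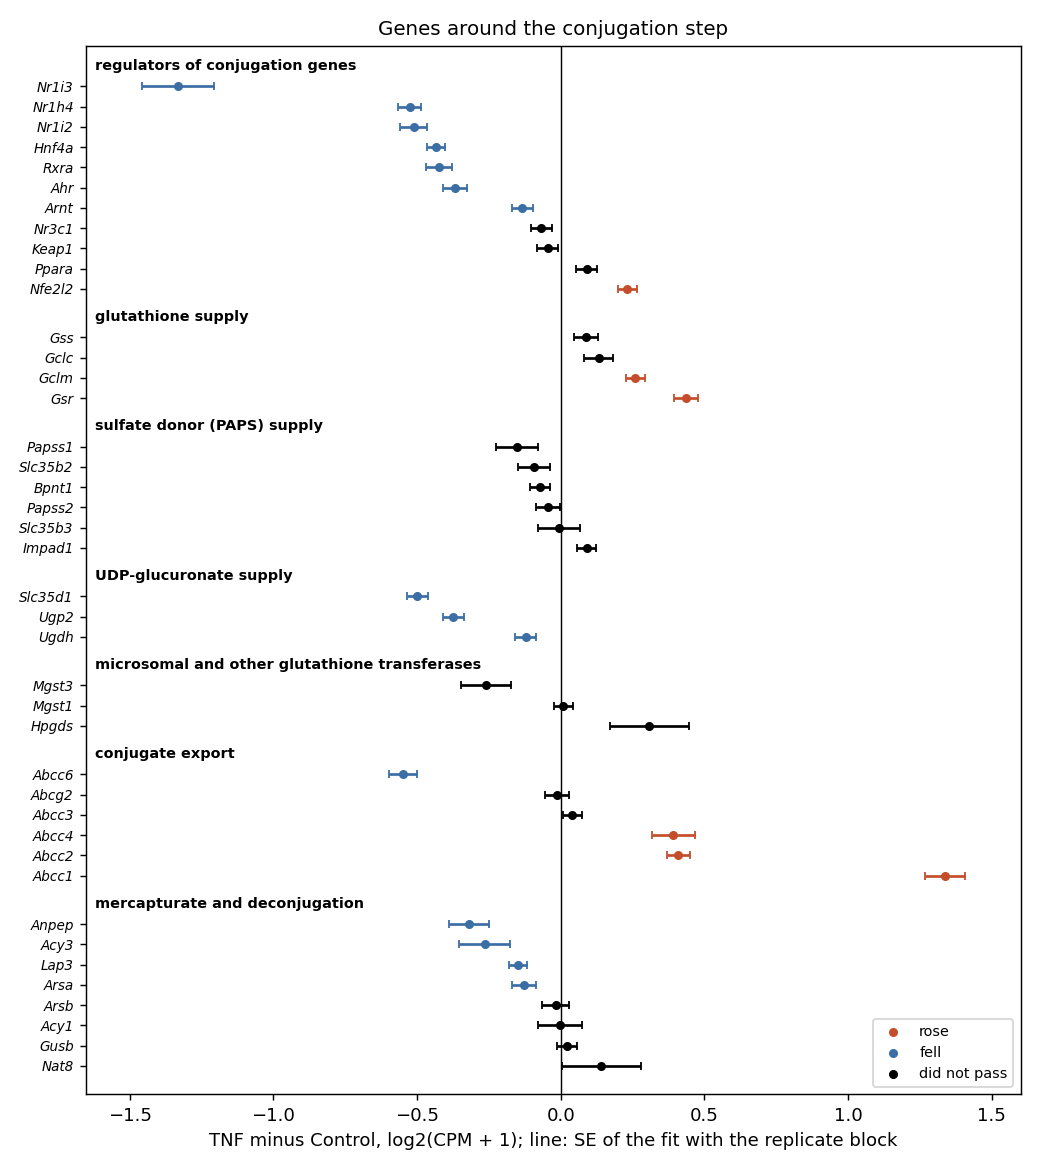
Change of the tested genes around the conjugation step, TNF minus Control on the log2(CPM + 1) scale, with the SE of the blocked fit as a line, by list. Nr1i3 (-1.33) and Abcc1 (1.34) lie farthest from 0, and the 3 genes of UDP-glucuronate supply all lie below it.

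In the authors' deposited table, 16 of the 52 conjugation genes had an adjusted p under 0.05, 5 higher and 11 lower with TNF, against 15.2% of all its 19764 genes. Of these 14 were among the 16 that passed in the blocked fit, with the same sign in all 14. The authors' deposited table also called Gstm7 and Gstt3, and did not call Ugt2b1 and Ugt2b34. It gave a log2 fold change of -0.62 for Sult1d1, -0.32 for Gstp1 and 0.37 for Gstm6. Both sets of calls come from the same 6 libraries.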

How the data were processed

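PolyA RNA of 3 TNF and 3 Control cultures of primary mouse hepatocytes was sequenced paired-end. Alignment was with STAR 2.6.1a to mm10, per the submitters' processing notes; how reads were counted, on which annotation and with which strand setting is not given in the sources used here. Values as deposited were log2 CPM to which the authors had added a prior count. By the counted lengths deposited with them, they cover gene spans with introns. The authors' deposited table also held, per gene, p-values (raw and adjusted) and a likelihood ratio score from a model that its header leaves unnamed, and gene positions and lengths. After its floor was subtracted, 100% of the 118584 deposited log2 values were whole reads (tolerance 1e-06 reads). Per library, 3 reads, the limit that a count of 0 allows, came to 0.124 to 0.166 CPM, for counting error only.

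Because the deposited unit is log2, limma 3.58.1 (R 4.3.3) was run on log2(CPM + 1), with the prior variance following a trend, two-sided, with Benjamini-Hochberg adjustment at 0.05, and was tested on simulated data first. The filter asked for 10 reads in 3 libraries, after scaling to the median one, and 15 in total, which left 12293 genes. The median library was first taken over raw totals and then over the authors' scaled sizes, which gave the gene count of the earlier report on these data. Fold changes on this scale understate changes of low genes. Groups and replicate numbers came from the sample titles. Same-numbered TNF and Control libraries deviated together from their group means (r = 0.784, 0.789 and 0.793 over all tested genes; -0.47 to -0.34 between other numbers), so by the rule stated for the design the numbers pair the libraries; the labels name no shared animal or day. Deviations cancel within a group by construction, and blocked SEs lean on the prior variance shared between genes. Between any 2 libraries, chi-square over its degrees of freedom was 15.0 to 71.2, so none was a duplicate.

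Values are given in every library for genes past the threshold in either fit and for the 4 genes of each family with the most reads; genes of the lists are named where they passed in the blocked fit. The genes, lists and markers were chosen with earlier results of these data known. Pairs of neighbours and the promoters shown were chosen after their values were seen, and a TATA motif was dropped and an AP-1 motif added after the first matches. Promoters are RefSeq windows matched by symbol for 45 of the 52 genes (44 of them within 100 bases of the table's start); transcripts were compared with BLAST 2.17.0+. Alternatives changed the pseudocount, filter, scaling, tool and libraries used. Slc26a1, Sts, Tf and Lrat were not analysed here, and 1 regulator and 1 promoter motif are not reported here.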

Additional observations from a re-analysis of the deposited data

How the results depend on the processing

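With the replicate block, 10 of the 16 conjugation genes that passed did so in each of 11 alternatives (pseudocounts of 0.1 and 5 CPM, at least 1 read, a mean of at least 1 CPM, library totals, median of ratios, limma-voom, the deposited log2 values, and each replicate number left out). Gstm2, Gstm3, Gstp2, Ugt2b1, Ugt2b34 and Ugt3a2 did not, and none of the 16 turned its direction. Another 7 genes, which had not passed, did so in some alternative. Gsta2 and Gstm7 passed without number 1, Gstm1, Gstm4 and Ugt2b35 without number 2, and Sult2a8 without number 3. Gstt3 passed with a pseudocount of 5 CPM and with limma-voom. The planned fit with no filter, over all 19764 rows, was outside those 11: blocked it called 0 genes of any kind, 0 higher and 0 lower, and 0 in the Gst, Sult and Ugt families; unpaired it called 5 genes higher and 0 lower, and 0 conjugation genes. Many of its rows held no reads and had a variance of 0, and the cause of the loss was not tested; the setting with at least 1 read was added after this was seen. It called 28 genes higher and 3 lower unpaired. Blocked, it called 832 of all genes higher and 911 lower, 3 conjugation genes higher and 7 lower, 3 Gst genes higher and 2 Ugt genes lower. The block itself moved the unpaired counts to 1156 genes higher and 1374 lower, and to 5 conjugation genes higher and 11 lower. At an adjusted p of 0.01 the blocked fit called 745 genes higher and 813 lower, 3 conjugation genes higher, all Gst (3), and 8 lower, of which 5 were Gst, 1 Sult and 2 Ugt genes. Median of ratios, blocked, gave 3 Ugt genes lower, beside 1282 of all genes. Leaving out 1 library at a time, the unpaired fit called 8 to 25 genes higher, 0 to 5 lower, and 0 to 1 conjugation genes lower. In the unpaired fit of all libraries, 0 conjugation genes were higher and 6 lower at an unadjusted p under 0.05. The share of all tested genes at that unadjusted p was not computed, so nothing is read from this count. Leaving out a replicate number, the blocked fit called 1 to 2 Sult genes and 3 to 4 Ugt genes lower, beside 942 to 1228 of all genes. The cause of these moves was not tested.

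Direction turned only in genes that had not passed or, unpaired, in Gstm2, Gstp2 and Ugt2b1. Gsta3 changed by 0.00393 under library totals and 0.00738 under median of ratios, and Sult1e1 by -0.0248 with a pseudocount of 0.1 CPM and -0.0249 on the deposited log2 values, in both fits. Leaving out 1 library, unpaired log2 changes spanned -0.20 to 0.56 for Gsta2, -0.088 to 0.085 for Gsta3, -0.017 to 0.28 for Gstm2, -0.21 to 0.10 for Gstm4, -0.20 to 0.017 for Gstm5, -0.0097 to 0.081 for Gsto2, -0.046 to 0.44 for Gstp2, -0.37 to 0.15 for Sult1a1, -0.24 to 0.18 for Sult1c2, -0.39 to 0.43 for Sult1e1, -0.53 to 0.053 for Sult2a8, -0.19 to 0.029 for Ugt1a10, -0.32 to 0.13 for Ugt2a3, -0.49 to 0.18 for Ugt2b1, -0.29 to 0.17 for Ugt2b35, -0.23 to 0.39 for Ugt2b38 and -0.44 to 0.097 for Ugt3a1. With the replicate block and 1 number left out they spanned -0.0146 to 0.00595 for Gsta3 (0.000246 without number 3), -0.19 to 0.011 for Gstm4, -0.18 to 0.034 for Sult1a1, -0.18 to 0.0040 for Sult1c2, -0.14 to 0.29 for Sult1e1 (-0.13 without number 1), -0.25 to 0.076 for Ugt1a10 and -0.060 to 0.12 for Ugt2b38. Summing the Ugt1a genes was planned and could not be run, as the table has 1 such row. The family sums kept their direction under every alternative run.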
